A study of Mus musculus with 2 samples.

Results

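TRAV9 is a subgroup of the mouse T cell receptor α chain variable genes, the V genes that are joined to a TRAJ segment to make the α chain of an αβ T cell receptor. Its members were all TRA contigs, assembled α chain sequences, whose V gene name was TRAV9 with or without a letter for a repeated gene array. They came to 229 of 3782 TRA chains, 125 of 1862 in the WT library and 104 of 1920 in the Btla-/- library, and lay in 227 of the 3502 cells that had a TRA chain, 123 WT and 104 Btla-/- cells. Of 11 annotated TRAV9 genes, 8 were called, all 8 among WT chains and 7 among Btla-/- chains.

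The cells were CD4 single-positive (SP) thymocytes of C57BL/6J mice aged 8 to 12 weeks, either Btla wild type or Btla-/-. They were enriched by negative selection with a kit made for naive CD4+ T cells, and the receptor transcripts of single cells were amplified with 10x Genomics V(D)J chemistry. BTLA is a co-inhibitory receptor of lymphocytes, and the series asked whether the receptor repertoire of CD4 SP thymocytes differs without it. There was 1 library per genotype and the number of mice behind each is not given in the sources used here, so genotype and library cannot be told apart, no test between genotypes was possible, and all intervals are exact (Clopper-Pearson) 95% intervals of a share that cover counting error only. Only receptor contigs were sequenced, so neither the Btla genotype nor the CD4 SP label could be checked in these values.

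The libraries held 6003 WT and 7101 Btla-/- contigs of 4040 and 5077 cells, made from 26700294 and 22026825 reads and 80347 and 75456 unique molecular identifiers (UMIs, tags that mark single captured transcripts). All contigs were full length and productive. The libraries shared 30 cell barcodes, and none of these held a TRAV9 chain, so the TRAV9 chains were the same without them.

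An α chain is made when a V gene is cut at its recombination signal, a heptamer and a nonamer held apart by a spacer, and joined to a TRAJ segment, with bases trimmed and added at the junction. The Tra locus can rearrange more than once on the same chromosome, and each round removes the DNA between the joined segments, so that later joins use V genes farther upstream and TRAJ segments farther downstream. Mouse V genes lie in repeated arrays, and gene names carry the letter D or N for the duplicated copies or no letter for the array nearest to the TRAJ segments. The first and second complementarity-determining regions (CDR1 and CDR2), which mostly face the MHC molecule, are encoded in the V gene itself, while CDR3 spans the V-J junction.

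The V region deposited for each contig, from the start of the mature chain to the end of framework 3, separated the subgroup into a TRAV9-1 kind and a larger kind. It was 270 bases long in 7 of the 8 genes. TRAV9-1 and TRAV9D-1 differed from each other at 2 bases (99.3% identity) and had 80.7 to 82.2% identity to the others of this length, which were 96.7 to 98.5% identical among themselves. The V region was identical to the C57BL/6J reference genome (GRCm38) in 227 of 229 chains. The CDR1 and CDR2 of the genes with at least 10 chains are shown because they are what the V gene alone adds to the binding face, with capitals at bases that differ from TRAV9N-3, the gene called most often; TRAV9D-1 has the same CDR1 and CDR2 as TRAV9-1.
TRAV9-1 CDR1: taTGGtggATcCATttaC
TRAV9-2 CDR1: tactCtgggacaccttat
TRAV9-4 CDR1: tactCtgggacGccttat
TRAV9N-3 CDR1: tactttgggacaccttat
TRAV9N-4 CDR1: tactCtgCgacaccttat
TRAV9-1 CDR2: tactatTcGggaAacccagtggtt
TRAV9-2 CDR2: tactatTcaggagacccagtggtt
TRAV9-4 CDR2: tactatTcCggagacccagtggtt
TRAV9N-3 CDR2: tactatccaggagacccagtggtt
TRAV9N-4 CDR2: tactatTcaggagacccagtggtt
TRAV9-1 differed from TRAV9N-3 at 9 of 18 CDR1 bases and 3 of 24 CDR2 bases, whereas TRAV9-2, TRAV9-4 and TRAV9N-4 differed at 1 or 2 bases in each.

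The D and N copies of 2 genes could not be told apart. The whole V region called TRAV9N-3 occurs letter for letter at chr14:52920830-52921099, inside TRAV9D-3, and at chr14:53231820-53232089, inside TRAV9N-3, both on the plus strand of GRCm38. It is printed with CDR1 and CDR2 in capitals.
TRAV9N-3 and TRAV9D-3 V region: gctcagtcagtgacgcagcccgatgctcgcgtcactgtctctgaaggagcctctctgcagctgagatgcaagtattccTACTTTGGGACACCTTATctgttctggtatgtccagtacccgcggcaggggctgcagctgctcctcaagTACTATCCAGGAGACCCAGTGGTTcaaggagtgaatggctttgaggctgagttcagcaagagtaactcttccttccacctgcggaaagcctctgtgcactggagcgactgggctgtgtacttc
The V region called TRAV9N-2 likewise occurs inside TRAV9D-2 (chr14:52892336-52892605) and TRAV9N-2 (chr14:53203272-53203541). These 73 chains, 31.2% of the WT and 32.7% of the Btla-/- TRAV9 chains, all carried the N name, and neither TRAV9D-2 nor TRAV9D-3 was ever called. The third gene never called, TRAV9N-1, is annotated as a pseudogene. For this gene a count of 0 sets an upper limit of 0.161% of WT and 0.156% of Btla-/- TRA chains taken as 3 counts of the total. Its exact intervals run to 0.198% and 0.192%. Only productive contigs were present, so this limit covers productive chains and not how often the pseudogene is joined. The counts of 0 for TRAV9D-2 and TRAV9D-3 set no such limit, since their chains would carry the N names.

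TRAV9D-4, called in 2 WT chains and no Btla-/- chain, had a V region 30 bases (10 codons) shorter than that of its N copy and identical to it elsewhere. The missing bases, which begin within CDR2, are shown because they are the only difference between these copies over the V region.
TRAV9N-4 bases absent from TRAV9D-4: cagtggttcaaggagtgaacagcttcgagg
The annotation carried in the contigs gave no CDR2 for TRAV9D-4.

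The 3′ end of each V gene in GRCm38 holds the germline part of CDR3 (lower case at the left) followed by the recombination signal, whose heptamer and nonamer are in capitals around a spacer of 23 bases. These ends are shown because CDR3 starts and trimming below are read against them.
TRAV9N-3 end: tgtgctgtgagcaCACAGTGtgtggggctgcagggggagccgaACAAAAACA
TRAV9-1 end: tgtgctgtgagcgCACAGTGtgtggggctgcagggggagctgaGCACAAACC
TRAV9-2 end: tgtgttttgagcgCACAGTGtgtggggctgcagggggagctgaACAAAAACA
TRAV9-4 end: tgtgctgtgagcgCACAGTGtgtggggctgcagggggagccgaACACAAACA
TRAV9N-4 end: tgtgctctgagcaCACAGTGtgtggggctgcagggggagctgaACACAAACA
The heptamer was CACAGTG in all annotated TRAV9 genes other than the pseudogene TRAV9N-1, which has CACAGTA. The nonamer was ACAAAAACA for TRAV9N-3 and TRAV9-2, ACACAAACA for TRAV9-4 and TRAV9N-4, and GCACAAACC for TRAV9-1.

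TRAV9 was the seventh most used of the TRAV subgroups in both libraries. It made up 6.71% of WT TRA chains (interval 5.62 to 7.95%) and 5.42% of Btla-/- TRA chains (4.45 to 6.53%), a difference of -1.30 percentage points (Btla-/- minus WT) with overlapping intervals. By the difference in share summed over both libraries, the nearest subgroups were TRAV4, at 7.41% (WT) and 8.07% (Btla-/-), and TRAV16, with 4.83% and 2.97%. In the Btla-/- library alone, TRAV3 (3.59%) and TRAV8 (3.54%) were nearer to TRAV9 than either. Rank is from the order of shares and carries no test. A TRA chain was found in 1704 of 4040 WT and 1798 of 5077 Btla-/- cells, so shares and ranks describe detected chains. Whether TRAV9 chains were detected as often as other TRA chains was not tested.

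TRAV9N-3 and then TRAV9-1 were the genes called most in both libraries. TRAV9N-3 was called in 36 WT and 31 Btla-/- chains, 1.93% (1.36 to 2.67%) and 1.61% (1.10 to 2.28%) of TRA chains. TRAV9-1 followed with 25 and 19 chains, 1.34% (0.871 to 1.98%) and 0.990% (0.597 to 1.54%). TRAV9-2 had 19 and 15 chains, 1.02% and 0.781% of TRA chains. Within each library the intervals of neighbours in this order overlapped.

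TRAV9-4 was the most even of the genes with at least 10 chains, with 18 chains in each library, 0.967% of WT and 0.938% of Btla-/- TRA chains. TRAV9N-4 had 17 WT and 12 Btla-/- chains, 0.913% and 0.625%. TRAV9D-1 had 5 and 6 chains, 0.269% and 0.313%, and TRAV9N-2 had 3 chains in each. The interval of TRAV9N-3 lay wholly above those of TRAV9D-1, TRAV9N-2 and TRAV9D-4 in both libraries.

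The share was lower in the Btla-/- library for 7 of the 8 genes, with differences from -0.353 to 0.0440 percentage points. Among the 7, TRAV9-4 and TRAV9N-2 had equal chain counts in both libraries, and only the larger number of Btla-/- TRA chains set them lower. No gene's intervals lay apart between the libraries. Over all TRAV genes with at least 1% of TRA chains in a library, 2.08% had intervals apart (1 of 48); 3 TRAV9 genes were among the 48 and none of them was that gene. The plot of gene use shows the same values with their intervals.

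**Figure D1:**
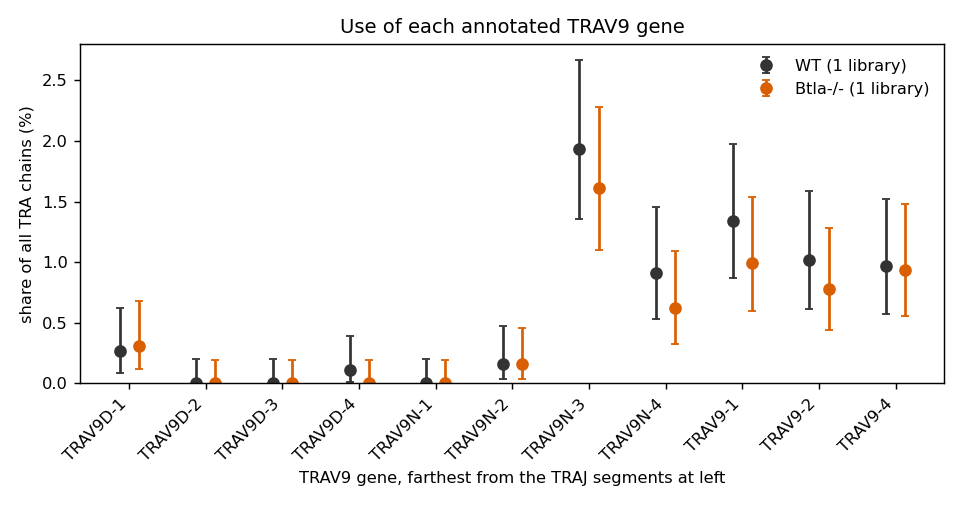
Share of all TRA chains (y axis, %) made up by each of the 11 annotated TRAV9 genes, ordered along the x axis from farthest to nearest to the TRAJ segments; points are single libraries and bars are exact 95% intervals. The name TRAV9N-3 is highest in both libraries at 1.93% and 1.61%, and the intervals of the libraries overlap for every gene. The points of TRAV9D-2 and TRAV9D-3 set no limit on these genes. Their V regions are identical to those of TRAV9N-2 and TRAV9N-3, whose points may hold chains of both copies.

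By array, the names put 49.6% of WT and 50% of Btla-/- TRAV9 chains on the genes with no letter, 44.8% and 44.2% on N genes, and 5.60% and 5.77% on D genes. The D share was below that of the other TRA chains, 16.6% in the WT library (14.9 to 18.4%, against 2.28 to 11.2% for TRAV9) and 18.4% in the Btla-/- library (16.7 to 20.3%, against 2.15 to 12.1%). This comparison rests on the names of the 73 chains whose D and N copies are identical: with all of them counted as D the TRAV9 share would be 36.8% of WT and 38.5% of Btla-/- chains. Counting only chains whose V region occurs once in the genome, an alternative added after the data were seen, the no-letter share was 72.1% of WT and 74.3% of Btla-/- chains and the N share 19.8% and 17.1%.

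The TRAJ partner differed between TRAV9 genes. TRAV9N-3, 925 kb from TRAJ58, was joined to TRAJ segments numbered 30 or lower in 26 of 36 WT chains (72.2%, 54.8 to 85.8%) and 24 of 31 Btla-/- chains (77.4%, 58.9 to 90.4%). TRAV9-4, the TRAV9 gene nearest to the TRAJ segments at 481 kb, was joined to them in 3 of 18 WT chains (16.7%, 3.58 to 41.4%) and 4 of 18 Btla-/- chains (22.2%, 6.41 to 47.6%). The intervals of these 2 genes lay apart in each library, although for TRAV9N-3 the distance is that of the N copy and chains of TRAV9D-3 cannot be separated from it.

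The genes between these positions had shares between these values. TRAV9N-4, at 862 kb, had 52.9% of WT and 58.3% of Btla-/- chains on TRAJ segments up to 30, TRAV9-1, at 669 kb, had 56.0% and 52.6%, and TRAV9-2, at 566 kb, had 31.6% and 46.7%. TRAJ numbers run down toward the constant gene, so a higher mean number is a join nearer to the V genes. The mean TRAJ number over both libraries was 20.7 ± 17.1 for TRAV9N-3 (SD over 67 chains), 26.9 ± 14.8 for TRAV9N-4 (29 chains), 28.1 ± 14.3 for TRAV9-1 (44 chains), 33.7 ± 13.8 for TRAV9-2 (34 chains) and 38.4 ± 11.5 for TRAV9-4 (36 chains). The SDs are wider than the steps between neighbours, and TRAV9N-4 and TRAV9-1 changed places between the libraries, at 26.1 and 28.5 in WT chains and 28.1 and 27.6 in Btla-/- chains. TRAV9D-1, the farthest at 1364.5 kb, had a mean of 25 ± 15.4 over 11 chains, above that of TRAV9N-3.

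**Figure D2:**
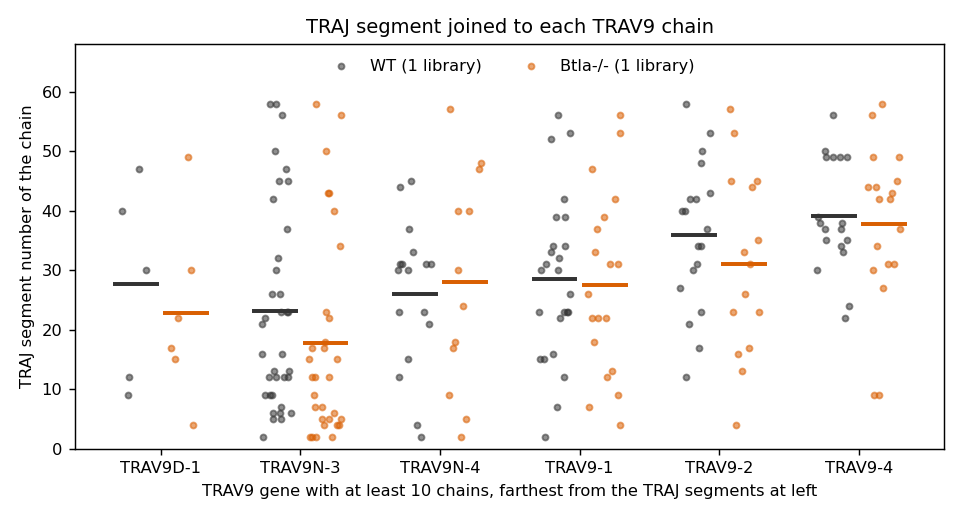
Number of the TRAJ segment (y axis) joined in each chain of the 6 TRAV9 genes with at least 10 chains, ordered along the x axis from farthest to nearest to the TRAJ segments; points are chains, spread sideways at random, and bars are library means. Chains of TRAV9N-3 gather at low TRAJ numbers and chains of TRAV9-4 at high ones in both libraries, with pooled means of 20.7 and 38.4.

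The same split was present between arrays and outside the subgroup. TRAJ segments up to 30 took 66.1% of WT and 71.7% of Btla-/- TRAV9 chains named N, and 37.1% and 40.4% of those with no letter. Among the other TRA chains they took 71.6% and 75.5% of N chains and 30.1% and 38.8% of chains with no letter. The split between N and no letter was thus not particular to TRAV9. D chains of the other subgroups had 56.6% (WT, 50.7 to 62.4%) and 68.1% (Btla-/-, 62.8 to 73.0%). These shares were below those of N chains, with intervals apart in the WT library only. Yet TRAV9 genes named D lie farther from the TRAJ segments than those named N. TRAV9 chains named D were few, with 5 of 7 WT and 5 of 6 Btla-/- chains.

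Over the subgroup as a whole, TRAJ segments up to 30 were joined in 65 of 125 WT TRAV9 chains (52.0%, 42.9 to 61.0%) and 59 of 104 Btla-/- chains (56.7%, 46.7 to 66.4%). The other TRA chains had 48.4% (46.0 to 50.8%) and 58.04% (55.7 to 60.3%), a difference between libraries whose intervals lay apart. For TRAV9 the intervals overlapped, and whether the TRAV9 difference of 4.73 percentage points differs from that of the other chains was not tested. The direction depended on the boundary: with TRAJ20 as the limit the shares were 28.0% in WT and 41.3% in Btla-/- chains, and with TRAJ40 they were 77.6% and 72.1%.

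Split into 5 windows of TRAJ numbers, TRAV9 shares were larger in the Btla-/- library at the lowest and highest TRAJ numbers and smaller from TRAJ21 to TRAJ40. TRAJ2 to TRAJ9 took 12.8% of WT and 24.0% of Btla-/- TRAV9 chains, TRAJ11 to TRAJ18 took 15.2% and 17.3%, and TRAJ42 to TRAJ58 took 22.4% and 27.9%. TRAJ21 to TRAJ30 took 24.0% and 15.4%, and TRAJ31 to TRAJ40 took 25.6% and 15.4%. All of these intervals overlapped between the libraries. In the other TRA chains the TRAJ42 to TRAJ58 window went the other way, from 30.7% (28.5 to 32.9%) of WT to 22.6% (20.7 to 24.6%) of Btla-/- chains; the difference between the 2 sets of chains was not tested.

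**Figure D3:**
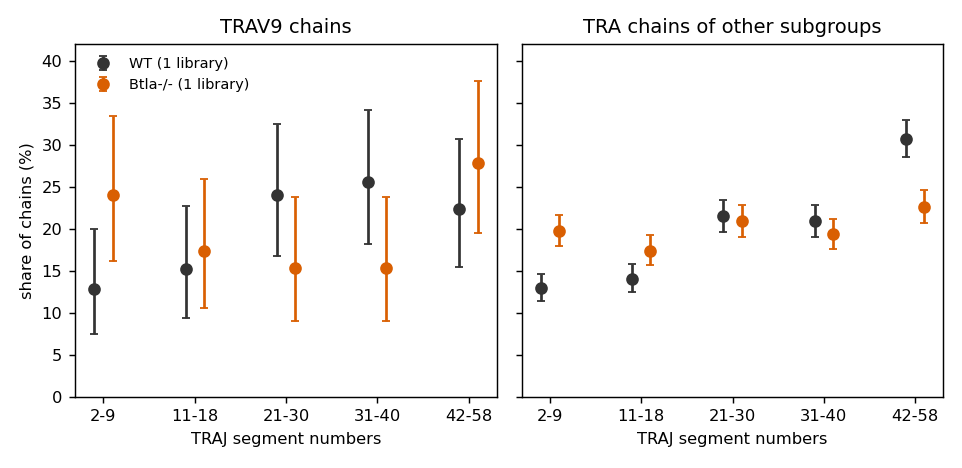
Share of chains (y axis, %) joined to TRAJ segments in each of 5 number windows (x axis) for TRAV9 chains (left) and all other TRA chains (right); points are single libraries and bars are exact 95% intervals. Every pair of TRAV9 intervals overlaps, while the other TRA chains differ by more than counting error at TRAJ2 to TRAJ9 and at TRAJ42 to TRAJ58.

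TRAV9 chains used 41 of the 43 TRAJ segments found in TRA chains, 40 of them with WT and 38 with Btla-/- chains, in 136 combinations of V gene and TRAJ segment. The combinations seen most were TRAV9N-3 with TRAJ12, in 4 WT and 3 Btla-/- chains, and TRAV9-4 with TRAJ49, in 4 and 2. TRAJ23 was the segment joined most in the WT library, in 11 of 125 chains (8.80%, 4.48 to 15.2%), and was joined in 3 of 104 Btla-/- chains (2.88%, 0.599 to 8.20%). In the other TRA chains TRAJ23 took 3.22% (WT, 2.44 to 4.17%) and 5.01% (Btla-/-, 4.05 to 6.12%), so the intervals of TRAV9 and other chains lay apart in the WT library and overlapped in the Btla-/- library. TRAJ23 was named for being used most in the WT library, so this is a description. The WT chains with TRAJ23 included a TRAV9-1 CDR3 found in 2 cells, and the comparison was not repeated with that sequence counted once.

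TRAJ12 was joined in 8 WT and 4 Btla-/- TRAV9 chains and TRAJ30 in 8 and 3, which were the next most used in the WT library. TRAJ30 had, after TRAJ23, the second largest difference among segments with at least 10 TRAV9 chains, -3.52 against -5.92 percentage points. In the Btla-/- library TRAJ4 led with 7 chains against 1 in the WT library, followed by TRAJ2, TRAJ9, TRAJ22 and TRAJ31 with 5 each. None of the 41 segments used with TRAV9 had intervals apart between the libraries within TRAV9. Over all TRA chains 7.32% (3 of 41 tested) did, and these were TRAJ2, TRAJ4 and TRAJ30. The latter 41 were segments with at least 1% of TRA chains in a library, so the sets differ. TRAV9 intervals rest on 125 WT and 104 Btla-/- chains, against 1862 and 1920 for all TRA chains, and are wider. The counts therefore cannot be compared directly.

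The subgroups whose TRAJ usage was closest to that of TRAV9, among subgroups with at least 50 chains in each library, were TRAV12 and TRAV6. Their total variation distance, the share of chains that would have to change segment for the usages to match, was 0.160 and 0.162 with both libraries pooled. Both have more chains than TRAV9, and this distance is larger for small sets by counting error alone.

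Most TRAV9 CDR3s began with residues that the V gene encodes. The germline start is CAVS for TRAV9N-3, TRAV9-1, TRAV9-4 and TRAV9D-1, CVLS for TRAV9-2 and TRAV9N-2, and CALS for TRAV9N-4 and TRAV9D-4. CAVS was the start of 49 of 125 WT chains (39.2%, 30.6 to 48.3%) and 52 of 104 Btla-/- chains (50%, 40.03 to 59.97%), against 7.66% and 6.55% of the other TRA chains. CVLS began 14 WT and 12 Btla-/- chains, and CALS 16 and 6.

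The fourth residue was where the starts parted from the germline. It was serine, the germline residue, in 64.0% of WT and 68.3% of Btla-/- TRAV9 chains and arginine in 15.2% and 11.5%. CAVR, the most common start that no TRAV9 gene encodes whole, was found in 15 WT and 8 Btla-/- chains. All 13 germline CDR3 bases of the V gene were matched in 37.6% of WT chains (29.1 to 46.7%) and 40.4% of Btla-/- chains (30.9 to 50.5%). An added or TRAJ base that equals the germline V base counts as a match, so the shares that kept all 13 are upper limits if no mismatch is a read error.

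Bases that matched neither germline end were counted as added. TRAV9 chains had 3.15 ± 2.16 of them in the WT library (SD over 125 chains) and 3.15 ± 2.72 in the Btla-/- library (104 chains), with a median of 3 in both. The other TRA chains had means of 3.64 ± 2.99 and 3.50 ± 2.91 (SD over chains), and the difference was not tested. Germline V ends of TRAV9 were read at each annotated gene. Those of the other V genes were read at the first genome match of their framework 3 end, which can lie in another copy. No base was added in 12.8% of WT and 9.62% of Btla-/- TRAV9 chains, against 12.7% and 12.8% of the other chains. An added base that happens to match the germline is counted as germline, which lowers the means and raises the shares with no added base. Matching stopped at the first mismatch from each end, so a read error within germline bases acts the other way. The values are therefore not strict limits.

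CDR3 length, counted with the conserved first cysteine and last residue, was alike in both libraries. The mean was 13.9 ± 1.35 amino acids in WT (range 10 to 17) and 13.8 ± 1.25 in Btla-/- TRAV9 chains (range 10 to 16), and 14 amino acids was the most frequent length in each, in 41 WT and 30 Btla-/- chains. At most 13 amino acids were found in 40% (31.3 to 49.1%) and 42.3% (32.7 to 52.4%). At most 12 amino acids were found in 10.4% of WT chains (5.65 to 17.1%) and 15.4% of Btla-/- chains (9.06 to 23.8%), against 17.8% (16.0 to 19.7%) and 19.8% (17.96 to 21.7%) of the other TRA chains. These intervals overlapped for both libraries.

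The 229 chains held 222 distinct CDR3 nucleotide sequences, and 7 of them were found in 2 cells each. The 2 found in both libraries and the 2 whose cells also shared a TRB chain are printed, with capitals for bases that match neither the V nor the J germline end.
TRAV9D-4 and TRAV9N-4 with TRAJ18: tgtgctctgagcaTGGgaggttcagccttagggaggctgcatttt
TRAV9N-3 with TRAJ56, WT: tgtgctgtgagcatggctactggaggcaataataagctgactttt
TRAV9-1 with TRAJ56, Btla-/-: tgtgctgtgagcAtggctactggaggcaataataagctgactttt
TRAV9-4 with TRAJ35, WT: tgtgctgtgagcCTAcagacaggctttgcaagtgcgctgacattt
TRAV9-4 with TRAJ42, Btla-/-: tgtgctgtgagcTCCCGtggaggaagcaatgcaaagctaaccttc
The TRAJ18 sequence was read as TRAV9D-4 in the WT and TRAV9N-4 in the Btla-/- cell, each with 3 added bases. The TRAJ56 sequence needed no added base with TRAV9N-3, while the same letters with TRAV9-1 needed 1, since the last germline base of these V genes differs. The cells with the TRAJ18 sequence had different TRB chains, TRBV3 and TRBV26, and of those with the TRAJ56 sequence the WT cell had TRBV5 and the Btla-/- cell no TRB chain.

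Sequences found in both libraries were 0.901% of the distinct TRAV9 CDR3s (2 of 222, 0.109 to 3.22%) and 0.679% of those of the other TRA chains (23 of 3388, 0.431 to 1.02%). Of the 5 repeated within 1 library, TRAV9-4 with TRAJ35 came with the same TRBV12-2 chain in 2 WT cells and TRAV9-4 with TRAJ42 with the same TRBV16 chain in 2 Btla-/- cells. The other repeats, TRAV9N-3 with TRAJ7, TRAV9N-3 with TRAJ43 and TRAV9-1 with TRAJ23, had different TRB chains or lacked one.

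A TRB chain was found in 122 of 123 WT and 102 of 104 Btla-/- TRAV9 cells. TRBV13 and TRBV12 had the highest cell counts with TRAV9 in both libraries, an order that other choices of chains changed, with TRBV13 in 20 WT cells (16.4%, 10.3 to 24.2%) and 11 Btla-/- cells (10.8%, 5.51 to 18.5%), and TRBV12 in 16 (13.1%) and 12 (11.8%). In cells with a single TRA and a single TRB chain, TRBV13 was found in 10 of 96 WT cells (10.4%), behind, among the subgroups named here, TRBV12 and TRBV5 with 11 each and the joint call described next with 12. With contigs of at least 3 UMIs it was found in 3 of 51 Btla-/- cells (5.88%), behind, among the same subgroups, TRBV12 with 6, TRBV26 with 5, and TRBV15 and the joint call with 4 each. The joint call, the single V gene name TRBV12-2+TRBV13-2 in the deposited annotation, stood in 14 WT (11.5%) and 6 Btla-/- cells (5.88%). With it counted as TRBV13, TRBV13 came to 27.0% of WT TRAV9 cells (19.4 to 35.8%) and 16.7% of Btla-/- TRAV9 cells (10.0 to 25.3%), against 22.1% and 22.5% of the other cells.

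TRBV5 was paired in 11 WT (9.02%) and 10 Btla-/- TRAV9 cells (9.80%), and TRBV15 in 7 (5.74%) and 10 (9.80%). TRBV26, named after its values were seen, was found in 0 of 122 WT TRAV9 cells (upper limit 2.46% taken as 3 counts, exact interval to 2.98%) and in 9 of 102 Btla-/- cells (8.82%, 4.11 to 16.1%). Its 9 TRB chains were all different and came with 5 TRAV9 genes and 8 TRAJ segments. TRBV2, also named after its values were seen, went the other way, with 6 WT cells (4.92%, 1.83 to 10.4%) and 0 of 102 Btla-/- cells (upper limit 2.94% taken as 3 counts, exact interval to 3.55%).

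In the other cells TRBV26 stood at 3.22% (WT, 2.40 to 4.23%) and 4.41% (Btla-/-, 3.47 to 5.52%), and TRBV2 at 5.42% and 5.76%. TRBV26 was the only one of 18 TRBV subgroups tested whose intervals lay apart between the libraries in TRAV9 cells. Over all cells with both kinds of chain, 5.56% of the subgroups (1 of 18, TRBV19) had intervals apart. TRAV9 intervals rest on 122 WT and 102 Btla-/- cells and are wider than those over all cells. The count among TRAV9 cells therefore cannot be compared directly with the count over all cells. With contigs of at least 3 UMIs only, the TRBV26 intervals met, at 0 of 94 WT cells and 5 of 51 Btla-/- cells.

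**Figure D4:**
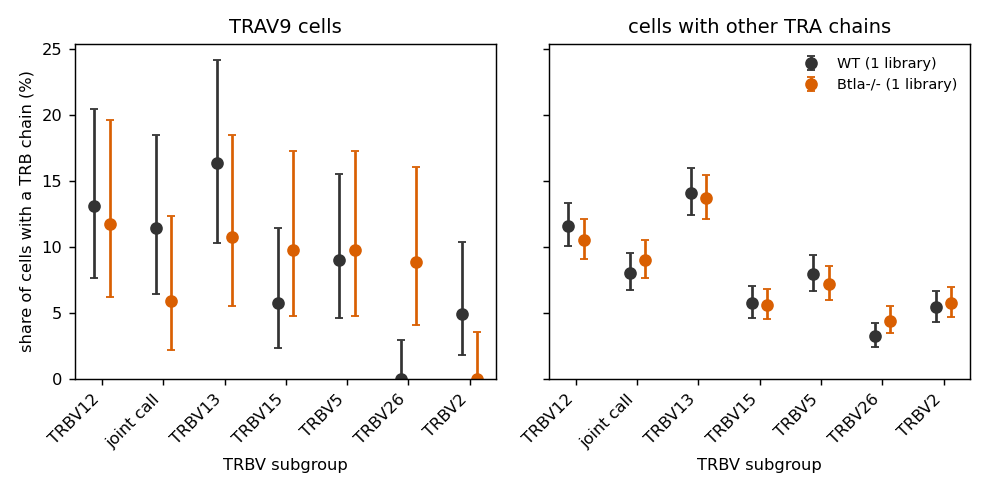
Share of cells with a TRB chain (y axis, %) that used each named TRBV subgroup (x axis). TRAV9 cells are at the left and cells with other TRA chains at the right. The joint call is the V gene name TRBV12-2+TRBV13-2. Points are single libraries and bars are exact 95% intervals. TRBV26 is at 0% in WT and 8.82% in Btla-/- TRAV9 cells and TRBV2 at 4.92% and 0%, while for both the intervals of the libraries overlap in the other cells.

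The β chains of TRAV9 cells were otherwise like those of the other cells. Their CDR3 was 14 ± 1.52 amino acids long in the WT library (SD over 133 chains) and 13.97 ± 1.45 in the Btla-/- library (112 chains), against 14.1 ± 1.48 and 14.2 ± 1.52. A TRBJ2 segment was used in 55.6% (46.8 to 64.2%) and 59.8% (50.1 to 69.0%) of them, against 60.2% and 61.1%.

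More than 1 TRA chain was present in 17 WT and 14 Btla-/- cells with TRAV9, and in 2 of the WT cells both chains were TRAV9. By chain, 15.2% of WT TRAV9 chains (9.41 to 22.7%) and 13.5% of Btla-/- TRAV9 chains (7.56 to 21.6%) lay in cells with more than 1 TRA chain, against 17.1% and 12.7% of the other TRA chains. Counted by cell the shares were 13.8% and 13.5%, against 8.92% and 6.38%, but a cell with 2 α chains has more chances to hold a TRAV9 chain. The TRAJ numbers of the 2 chains of a cell were a median of 4 apart in WT and 8 apart in Btla-/- TRAV9 cells. In the other such cells the median was 6 in each library. The means were 4.18 (WT) and 13.2 (Btla-/-) in TRAV9 cells, against 8.81 and 9.35. No gap between chains of different cells was measured, so these values have no baseline. The 2 chains were at most 10 apart in 16 of 17 WT and 8 of 14 Btla-/- TRAV9 cells.

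TRAV9 contigs had fewer reads than other TRA contigs at the same median number of UMIs. That median was 3 UMIs in both libraries for TRAV9 and for the other TRA chains. The mean was 3.78 ± 1.80 UMIs in WT (SD over 125 contigs) and 2.84 ± 1.37 in Btla-/- TRAV9 contigs (104 contigs), against 4.16 and 3.16 in the other TRA contigs. At least 3 UMIs were found in 76.8% of WT (68.4 to 83.9%) and 53.8% of Btla-/- TRAV9 contigs (43.8 to 63.7%), and the other TRA contigs moved the same way, from 68.2% to 54.6%.

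The median TRAV9 contig had 648 reads in WT and 286.5 in Btla-/- cells, against 1156 and 684 for the other TRA contigs. Divided by UMIs this was 197 reads per WT UMI (quartiles 111.5 and 259) and 109 per Btla-/- UMI (76.5 and 225), which is 54.3% and 38.6% of the median of the other TRA contigs, 363 and 283. In each library this was the lowest value of the 15 TRAV subgroups that held 1% or more of TRA chains, the other 14 lying at 241 to 423 (WT) and 207.5 to 355 (Btla-/-). The set of 15 held TRAV17 in the WT library only and TRAV1 in the Btla-/- library only. TRAV17, at 0.729% of Btla-/- TRA chains, had the next lowest WT value, 241 reads per UMI, with contigs of 623 bases. All 8 TRAV9 genes called in the WT library (148 to 329) and all 7 in the Btla-/- library (82.5 to 169) were below the median of the other TRA contigs.

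The TRB contigs of the same cells did not share this low value. They had medians of 342 reads per UMI in WT and 309 in Btla-/- TRAV9 cells, against 336 and 297 in the other cells. TRAV9 contigs were also the longest, with a median of 665 bases (WT) and 661 bases (Btla-/-), against at most 623 and 589 in the other 14 subgroups. Across the 15 subgroups, median reads per UMI fell with median contig length, with Spearman's rho of -0.88 in each library and -0.85 without TRAV9; the points share a library and a sequencing run, and the correlation is a description.

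Within TRAV9 the gene with the shortest contigs did not have more reads. TRAV9-1 contigs had a median of 545 bases in each library and 148 (WT) and 100.5 (Btla-/-) reads per UMI. TRAV9N-3 contigs had medians of 666 and 663 bases and 221 and 136 reads per UMI. The part of contig length in the low read number was not tested.

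**Figure D5:**
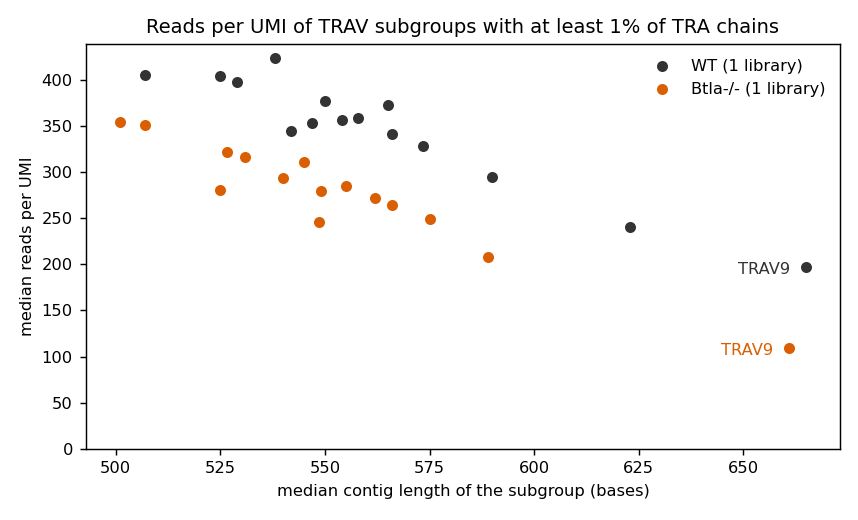
Median reads per UMI (y axis) against median contig length in bases (x axis) of TRAV subgroups. Each point is 1 of the 15 subgroups that held 1% or more of TRA chains in that library. TRAV17 is in the WT set only and TRAV1 in the Btla-/- set only. TRAV9 has the longest contigs and the fewest reads per UMI in both libraries, at 197 (WT) and 109 (Btla-/-).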

How the data were processed

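Per the labels and the study's methods, the authors aligned single-cell TCR reads to the mouse reference GRCm38 and assembled and annotated contigs with Cell Ranger 7.2.0. The deposited contig tables, 1 per library, gave for each contig its cell barcode, V and J gene, CDR3, the sequences of its framework and CDR regions, and the counts of reads and UMIs, not normalized. Summary tables of CDR3 length and diversity were not used here. The members and the lists were chosen with earlier results of these data known.

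TRA contigs with a TRAV9 gene name were counted as chains, and cells as library and barcode. Shares carry exact Clopper-Pearson 95% intervals computed with scipy 1.17.1 and pandas 2.3.3 in Python 3.11.15; figures used matplotlib 3.10.9. With 1 library per genotype no test or p-value between genotypes was possible, and leaving out a library leaves no comparison. UMIs and cells within a library are not replicates. V regions (framework 1 to framework 3) were searched in GRCm38, and gene positions came from the GENCODE M21 annotation of that build. Added bases were those left after matching each CDR3 nucleotide sequence to the germline V end and J start. Both ends were found for 3705 of 3782 TRA chains, all 229 TRAV9 chains among them. The interval and junction-matching steps were tested on simulated data.

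Values were given in full for TRAV9 genes with at least 10 chains, for the 3 TRAJ segments and TRBV subgroups used most with TRAV9 in each library (with ties), and for the 2 with the largest difference among those with at least 10 chains or cells. TRBV2 and TRBV26 were named beyond this rule. The alternatives took a minimum of 3 UMIs, single-pair cells (1 TRA and 1 TRB chain), distinct chains, barcodes found in 1 library, the TRA chain of a cell with most reads, and other boundaries. Doublets were not called; the single-pair setting bears on them. The files hold receptor contigs only, so no marker genes were read.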

Additional observations from a re-analysis of the deposited data

How the results depend on the processing

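No paired analysis was possible because each genotype has 1 library, and no library could be left out for the same reason. Under the 5 other ways of choosing chains (at least 3 UMIs, exactly 1 TRA and 1 TRB chain per cell, distinct chains once, shared barcodes left out, 1 TRA chain per cell) all 148 values stayed within the 95% interval of the value reported. Leaving out shared barcodes could not change values within TRAV9, since none of these barcodes held a TRAV9 chain. Counting distinct chains once kept 123 of 125 WT and 101 of 104 Btla-/- TRAV9 chains. The settings share chains with the main one, so the count of 148 is not an independent check. The TRAV9 share ranged from 6.51 to 7.50% in WT and 5.28 to 5.53% in Btla-/- chains. The TRBV26 intervals lay apart in 5 of 6 settings and met with at least 3 UMIs.

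Other boundaries measure other quantities. TRAJ20 in place of TRAJ30 gave 28.0% of WT and 41.3% of Btla-/- TRAV9 chains, and TRAJ40 gave 77.6% and 72.1%, where the difference changed direction. A CDR3 of at most 12 amino acids was found in 10.4% and 15.4%, and of at most 14 in 72.8% and 71.2%, again with the direction changed. At least 2 UMIs were found in 92.8% and 86.5% of contigs, with overlapping intervals, and at least 5 in 31.2% and 9.62%. The first 3 residues CAV were found in 63.2% and 67.3%. With the joint call, TRBV13 reached 27.0% of WT and 16.7% of Btla-/- TRAV9 cells.

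Chains whose V region occurs once in the genome, an alternative chosen after seeing the data, were 72.1% and 74.3% without a letter and 19.8% and 17.1% N. Without TRAV9N-3, also chosen after seeing the data, TRAJ segments up to 30 took 43.8% and 47.9%. With 104 to 125 TRAV9 chains a library, a difference within these intervals was not detectable at this depth.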
